A study of Mus musculus with 5 samples.

Results

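The rows described here are those whose biotype in the deposited table contains the word pseudogene, 452 of 12446 listed genes (451 pseudogene and 1 polymorphic_pseudogene). RNA was sequenced from cardiomyocytes of male C57BL/6 mice. The OSKM-CMs group (3 libraries, replicates 1, 2 and 3) came from mice given 4 adeno-associated virus vectors, for Oct4 with a His6 tag, Sox2 with Flag, Klf4 with HA and Myc with V5, each at 2.5e+10 vector genomes per gram of body weight. The Control-CMs group (2 libraries, replicates 3 and 5) was injected with a single vector, for blue fluorescent protein, at 1e+11 per gram. In both groups the vectors used the cardiac troponin T promoter, which drives expression in cardiomyocytes, the injection into the chest was at 8 weeks, and the age is given as 12 to 14 weeks. Whether the libraries are from different mice is not stated, so each p-value reflects the spread among these libraries alone, which may be technical.

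Most mouse pseudogenes are processed pseudogenes, copies of a messenger RNA that was reverse-transcribed and inserted elsewhere in the genome. Genes with abundant messenger RNA, such as those of ribosomal proteins and glycolytic enzymes, have left many of them. Other copies are stretches of mitochondrial DNA in nuclear chromosomes. Such a copy usually lacks the promoter of its source, and a short read from the parent messenger RNA can resemble the copy closely. The comparison asks whether pseudogene rows rose and fell with their parent genes.

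GENCODE M21 (GRCm38) held 415 of the 452 identifiers, of which 405 are pseudogene classes there (382 processed) and 8 are protein-coding. With a further 7 that RefSeq lists as protein-coding by symbol, 15 rows labelled pseudogene are annotated as coding genes elsewhere, among them Cebpd, the gene of a transcription factor, and Kbtbd13. M21 places 72 rows opposite in strand to a coding gene, 59 on the same strand as one and 1 on both, and the strand setting of the counting is not given in the sources used here, so reads of such neighbours cannot be told apart. Among the rows named below, Gm11512, Gm12816 and Ldha-ps2 lie on the strand of a coding gene, and Cebpd, Fabp3-ps1, Gm13339, Gm13340, Gm13341, Gm13772, Gm15531, Gm5822, Gm6415 and Pgam1-ps1 lie opposite to one. The parent was taken as the gene of the closest protein-coding transcript (401 rows) or, without a sequence match, the gene in the symbol (2 rows). The remaining 49 rows had no parent, and for 12 the parent is not listed in the table. This left 391 pairs with 255 parent genes. Some of these parents were thinly read. Gm10116 had 28 reads over OSKM-CMs and 7 over Control-CMs, and Gm11808 had 18 and 9. Median identity over the aligned stretch was 98.2%. In the median pair 56.4% of the 50-base windows of the pseudogene occurred in no protein-coding transcript, and in 19 pairs no window was its own.

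The 4 groups of copies below show how much sequence separates a row from its parent. Each stretch is 90 bases of coding sequence, read from GENCODE M21 transcripts, chosen as the window with the most differences from the parent over the copies shown; capitals mark bases that differ from the parent. Codons 128 to 157 of Eef1a1 (chromosome 9), translation elongation factor 1 alpha, stand beside copies on chromosomes 2, 16 and 19 with 1, 2 and 12 differences.
Eef1a1: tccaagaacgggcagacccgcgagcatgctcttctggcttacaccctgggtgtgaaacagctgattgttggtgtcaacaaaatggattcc
Gm13456: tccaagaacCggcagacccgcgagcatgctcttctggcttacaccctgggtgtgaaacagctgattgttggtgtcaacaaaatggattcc
Gm6767: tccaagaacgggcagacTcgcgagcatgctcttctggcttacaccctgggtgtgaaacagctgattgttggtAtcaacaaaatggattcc
Gm5822: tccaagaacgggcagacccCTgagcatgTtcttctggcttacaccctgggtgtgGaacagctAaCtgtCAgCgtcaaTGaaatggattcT

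Codons 318 to 347 of Rpl3 (chromosome 15), a protein of the large ribosomal subunit, are shown with its X-linked copies. Rpl3-ps1 has 0 differences in this stretch and Rpl3-ps2 has 3.
Rpl3: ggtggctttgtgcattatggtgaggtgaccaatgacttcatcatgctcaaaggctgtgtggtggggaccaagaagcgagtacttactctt
Rpl3-ps1: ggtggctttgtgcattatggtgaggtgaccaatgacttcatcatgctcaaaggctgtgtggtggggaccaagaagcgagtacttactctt
Rpl3-ps2: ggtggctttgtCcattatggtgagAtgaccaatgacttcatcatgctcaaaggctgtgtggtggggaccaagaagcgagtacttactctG

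Codons 82 to 111 of Pgam1 (chromosome 19), the glycolytic enzyme phosphoglycerate mutase, are shown with Pgam1-ps2 on chromosome 7, identical here and over its whole alignment (100% identity), and Pgam1-ps1 on chromosome 11, with 5 differences.
Pgam1: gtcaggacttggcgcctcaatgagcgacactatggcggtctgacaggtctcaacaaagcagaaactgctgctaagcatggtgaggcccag
Pgam1-ps2: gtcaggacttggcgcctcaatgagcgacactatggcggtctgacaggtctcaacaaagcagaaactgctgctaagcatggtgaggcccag
Pgam1-ps1: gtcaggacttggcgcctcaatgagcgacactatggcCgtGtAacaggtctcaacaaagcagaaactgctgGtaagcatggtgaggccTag

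Codons 149 to 178 of mt-Co1 (mitochondrial chromosome), a subunit of cytochrome c oxidase, are shown with Gm13340, its nuclear copy on chromosome 2, with 5 differences.
mt-Co1: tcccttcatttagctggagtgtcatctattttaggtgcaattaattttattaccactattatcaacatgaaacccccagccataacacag
Gm13340: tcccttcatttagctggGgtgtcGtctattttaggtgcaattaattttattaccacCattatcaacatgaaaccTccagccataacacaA

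Reads over the listed genes totalled 2691796 to 2780751 in OSKM-CMs and 3519628 to 3861805 in Control-CMs, and 3 reads, the most that a count of 0 allows, corresponded to 0.777 to 1.11 CPM in a library (counting error only). All 4 factor genes were higher in OSKM-CMs; Pou5f1, which encodes Oct4, was counted 344, 262 and 266 times in OSKM-CMs and 0 times in each Control-CMs library. Of 8 cardiomyocyte markers 7 were lower in OSKM-CMs (summed level 53702 to 65041 CPM, against 102181 to 109836 in Control-CMs), of 7 listed fibroblast markers 4 were higher (520 to 1236 CPM against 142 to 229), and of 8 endothelial markers 3 were lower (201 to 449 CPM against 515 to 644). Of 6 smooth muscle and pericyte markers 1 was higher and 1 lower (summed level 314 to 453 CPM against 903 to 990). Their part in the results below was not tested. In such bulk samples fewer cells of a type and less RNA per cell cannot be told apart.

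Pseudogene rows together took a smaller share of reads in OSKM-CMs, and without the copies of mitochondrial DNA the share was larger. Their share of reads was 1.18%, 1.13% and 1.09% in OSKM-CMs replicates 1, 2 and 3, against 1.51% and 1.70% in Control-CMs replicates 3 and 5. The groups did not overlap. The 7 copies of mitochondrial genes held 0.654%, 0.604% and 0.555% in OSKM-CMs and 1.19% and 1.36% in Control-CMs. All other pseudogene rows together went the other way, with 0.528%, 0.525% and 0.539% in OSKM-CMs against 0.321% and 0.337% in Control-CMs. A single one of them, AY036118, which was paired with no listed parent, held 0.149%, 0.128% and 0.145% in OSKM-CMs. It held 0.0658% and 0.0819% in Control-CMs. Rows with a ribosomal protein parent made up 0.120%, 0.127% and 0.126% in OSKM-CMs and 0.0619% and 0.0649% in Control-CMs. These are shares of each library, so a fall in one abundant class raises the others.

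**Figure D1:**
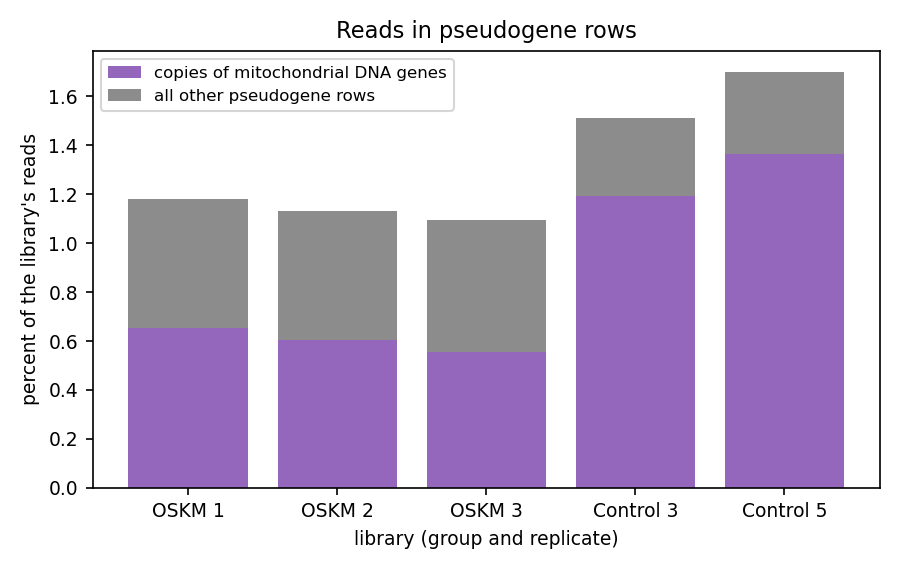
Percent of each library's reads in pseudogene rows (bars, one per library, OSKM-CMs replicates 1 to 3 and Control-CMs replicates 3 and 5), split into 7 copies of mitochondrial DNA genes and all other rows. The total is lower in OSKM-CMs (1.09% to 1.18% against 1.51% and 1.70%), while the part without mitochondrial copies is higher (0.525% to 0.539% against 0.321% and 0.337%).

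Most rows were thinly read, with a median of 61.5 reads over the 5 libraries (range 11 to 121573), against 270 for all listed genes. Levels are RPKM scaled with TMM factors, and the test was limma on log2(scaled RPKM + 1) over all genes with a mean of at least 1, which 436 of the 452 rows reached; the 1 added understates log2 changes of low rows. Of these, 86 were higher in OSKM-CMs, 49 were lower and 301 did not pass (Benjamini-Hochberg adjusted p below 0.05). The called share, 31.0%, lies near the 30.1% of all 10901 tested genes, with 19.7% higher and 11.2% lower against 15.7% and 14.4%. Their median log2 fold change was 0.23, against 0.02 for all tested genes. Groups did not overlap for 142 rows higher and 72 lower in OSKM-CMs, where 29.8% and 28.1% of all tested genes were so placed. With library totals as the only scaling, under which the median over all tested genes was 0.36, there were 171 rows higher and 22 lower. With limma voom on recovered reads 45 were higher and 32 lower. The lower count was 28 without OSKM-CMs replicate 3 and 32 without Control-CMs replicate 5. By the FDR of the authors' deposited table, 95 of the 452 rows were below 0.05, a smaller share than the 31.8% of all listed genes. The likeness of the called shares thus depends on the test used.

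The log2 fold changes of pseudogene rows followed those of their parents. In 318 of the 379 pairs with both tested (83.9%) they had the same sign. Pearson's r over these pairs was 0.83 and Spearman's rho 0.78, and r was 0.84 over 244 parents with 1 median per parent. These describe the pairs: both values of a pair come from the same 5 libraries and scaling, copies of 1 parent share sequence, and reads may be shared between them. The difference, pseudogene minus parent, had a median of -0.03 and lay within 0.5 in 289 pairs. It was above 1 in 7 pairs and below -1 in 3.

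Where a parent passed the test, its pseudogenes that passed moved the same way. Of 162 pairs with a higher parent, 61 pseudogenes were higher, 0 lower and 101 did not pass, and 153 had a positive log2 fold change. Of 76 pairs with a lower parent, 40 pseudogenes were lower, 0 higher and 36 did not pass. Of 141 pairs whose parent did not pass, 15 pseudogenes were higher and 3 lower. Of 253 parents tested, 84 were higher and 59 lower, or 56.5%, against 30.1% of all tested genes, and their median was 2555 reads. Without Control-CMs replicate 3 the higher parents numbered 54, and without Control-CMs replicate 5 the lower ones 36. With library totals alone 148 parents were higher and 20 lower.

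The likeness was closer for rows with more reads. Among 46 pairs with at least 200 reads in the pseudogene, 45 had the same sign (r = 0.97), and the median absolute difference from the parent was 0.14 on the log2 scale. Among 189 pairs with 50 to below 200 reads 157 did (r = 0.83, median absolute difference 0.25), and among 144 pairs with under 50 reads 116 did (r = 0.70, 0.36). It varied little with sequence identity. Same-sign shares were 84.2% up to 95% identity, 84.2% over 95 to 98%, 81.5% over 98 to 99% and 84.8% over 99%. By the share of 50-base windows found in no coding transcript they were 81.4% (under 30%), 84.6% (30 to 70%) and 84.7% (70% or more).

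**Figure D2:**
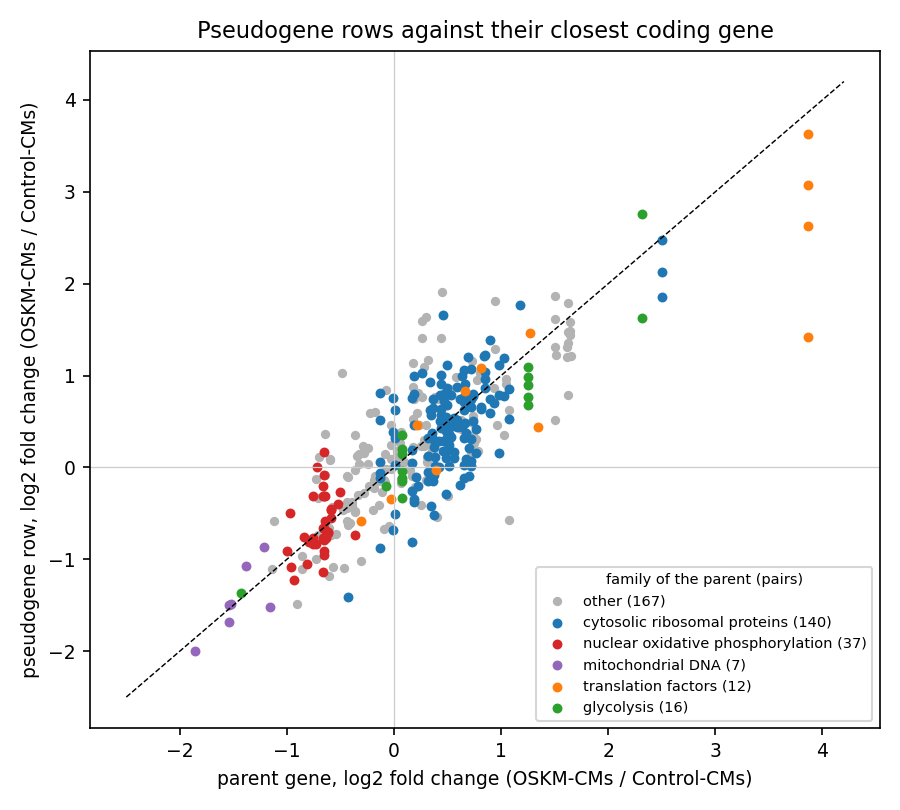
Log2 fold change (OSKM-CMs over Control-CMs) of the parent gene on the x axis and of the pseudogene row on the y axis, for 379 pairs, coloured by the parent's family; the dashed line marks equal values. Points spread along the line (r = 0.83), with the 4 Eef1a1 copies at the right below it and the mitochondrial DNA copies at the lower left. The 1 added before the log understates changes of low rows, Gm6767 among them.

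Gm13456 and Gm6767, copies of elongation factor Eef1a1, had the largest log2 fold changes of the rows that rose. Eef1a1 itself, which delivers aminoacyl-tRNA to the ribosome, had 1455, 1523 and 1602 scaled RPKM in OSKM-CMs, against 125 and 85.8 in Control-CMs (log2 fold change, 3.87, SE 0.16; limma adjusted p = 1.83e-05). Gm13456 (ENSMUSG00000082536.1) had 395, 419 and 430 reads in OSKM-CMs and 26 and 34 in Control-CMs. It averaged 98.5 ± 4.37 scaled RPKM in OSKM-CMs (SD, n = 3) and 7.11 ± 1.39 in Control-CMs (SD, n = 2), with a log2 fold change of 3.63 (SE 0.14, limma adjusted p = 1.75e-05). All 3 OSKM libraries lay far above both controls.

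The other Eef1a1 copies rose by different amounts on this scale. The 1 added before the log understates the change of a copy with few control reads, such as Gm6767. These values therefore do not rank Gm6767 against Eef1a1 or Gm13456. Gm6767 had 58, 46 and 66 reads in OSKM-CMs and 4 and 2 in Control-CMs (log2 fold change 3.07). Gm5822 had 64, 64 and 67 reads in OSKM-CMs and 8 and 6 in Control-CMs (2.63). Gm6548, named although outside the rule for named genes because it completes the set, had 51, 35 and 59 reads in OSKM-CMs and 17 and 14 in Control-CMs (1.42). All 4 passed the test and none overlapped between groups. Among all tested genes 15.7% passed as higher, and 29.8% were higher without overlap. Read for read, Gm13456 stood at 3.54%, 3.54% and 3.52% of Eef1a1 in OSKM-CMs and at 2.68% and 5.17% in Control-CMs. Gm6548 stood at 0.458%, 0.296% and 0.483% in OSKM-CMs and 1.75% and 2.13% in Control-CMs, and the groups did not overlap in this ratio.

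Among copies paired with listed translation factor genes, whose products bring mRNA and tRNA to the ribosome, 12 were tested. The 4 Eef1a1 copies passed and the remaining 8 did not. Of the 10 parents 6 were higher. The share over all tested genes was 15.7% higher and 14.4% lower. Eif4a-ps4, described below, also passed but was paired with no listed gene and is not counted here. Eif3s6-ps1, a copy of the initiation factor subunit gene Eif3e, had 17 reads over OSKM-CMs and 3 over Control-CMs (log2 fold change 1.46, limma adjusted p = 0.0623).

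Ribosomal protein genes were the largest family, with 140 pseudogene rows and 59 parents. Of these rows 34 were higher, 2 lower and 104 did not pass, with a median log2 fold change of 0.46. Of the 59 parents 44 were higher and 0 lower, with a median of 0.52. Over all tested genes 30.1% passed, with 15.7% higher and 14.4% lower. The 3 tested copies of Rpl3 moved most. Rpl3-ps1 had 79, 71 and 78 reads in OSKM-CMs, against 15 and 14 in Control-CMs (log2 fold change 2.13, SE 0.13, limma adjusted p = 7.82e-05). Rpl3-ps2 had 34, 27 and 34 reads against 6 and 6 (1.86), and Gm12816 had 34, 25 and 43 against 4 and 2 (2.48). Rpl3 itself averaged 492 ± 19.9 scaled RPKM in OSKM-CMs and 85.9 ± 7.03 in Control-CMs (log2 fold change 2.51). Rpl3-ps1 stayed at 3.57% to 3.86% of the reads of Rpl3 in OSKM-CMs and at 3.93% and 4.15% in Control-CMs.

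Other ribosomal copies rose by less. Gm16247, a copy of Rps24 and one of the 10 rows with the highest levels, had 319, 322 and 356 scaled RPKM in OSKM-CMs and 171 and 194 in Control-CMs (log2 fold change 0.87, SE 0.11, limma adjusted p = 0.00161). Rps24 had a log2 fold change of 0.49. All 3 tested copies of Rpl38 were higher, at 0.86 to 1.23, beside 0.85 for Rpl38. Rpl34-ps1 (1.20), Rps18-ps1 (1.21) and Rpl10a-ps1 (0.52) also passed. The calls of Rps18-ps1 and Rpl10a-ps1 were lost with limma voom and in 3 and 4 of the 5 fits that left out 1 library. Going the other way, Rpl30-ps10 had 16, 13 and 14 reads in OSKM-CMs and 23 and 19 in Control-CMs (log2 fold change -0.51, limma adjusted p = 0.0388), beside 0.00 for Rpl30, and Gm15531, a copy of Rps27, had -1.41 with few reads (13 over OSKM-CMs, 26 over Control-CMs); both calls were lost with limma voom and with library totals alone, that of Rpl30-ps10 also in all 5 fits that left out 1 library and that of Gm15531 in 3 of them. Over the whole family limma voom called 14 rows higher and 0 lower, and library totals alone called 79 higher.

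Rows with -ps in the symbol, the mouse nomenclature's mark of a pseudogene of a named gene, were 64 in all and all were tested. Of these, 18 were higher, 3 lower and 43 did not pass, a called share near the 30.1% of all tested genes. Limma voom called 8 higher and 1 lower, library totals alone 35 and 0, and fits without 1 library 12 to 23 and 0 to 3. The 3 lower ones were Fabp3-ps1, Rpl30-ps10 and Scp2-ps2, a copy of the sterol carrier gene Scp2 (log2 fold change -0.73). The call of each was lost with library totals alone. That of Scp2-ps2 was also lost with limma voom and without OSKM-CMs replicate 1 or replicate 3.

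Copies of nuclear genes of oxidative phosphorylation were lower or did not pass, and their parents were lower. Of 37 rows, 22 were lower, 0 higher and 15 did not pass, with a median log2 fold change of -0.70. All 24 parents were lower, with a median of -0.69. Lower genes were 14.4% of all tested genes and higher ones 15.7%. Gm12337, a copy of the ATP synthase subunit gene Atp5g1, had 141, 152 and 137 scaled RPKM in OSKM-CMs and 183 and 279 in Control-CMs (-0.66, SE 0.18, limma adjusted p = 0.0287). Gm13772, a copy of the cytochrome c gene Cycs, had 81.2, 139 and 115 in OSKM-CMs and 196 and 194 in Control-CMs (-0.84). Gm16418, a copy of the complex III gene Uqcr11, had 91.7, 90.5 and 61.4 in OSKM-CMs and 161 and 195 in Control-CMs (-1.14, SE 0.20). Gm6415, a copy of the complex I gene Ndufs6, fell by 1.22. In each of these 4, which are named for the size of their change or their level, the groups did not overlap. Among all tested genes 28.1% were lower without overlap. Limma voom called 13 of the 37 rows and all 24 parents lower. With library totals alone 7 of the 37 rows and 9 of the 24 parents were lower, and Gm12337 and Gm13772 no longer passed; both calls were also lost in 3 of the 5 fits that left out 1 library.

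**Figure D3:**
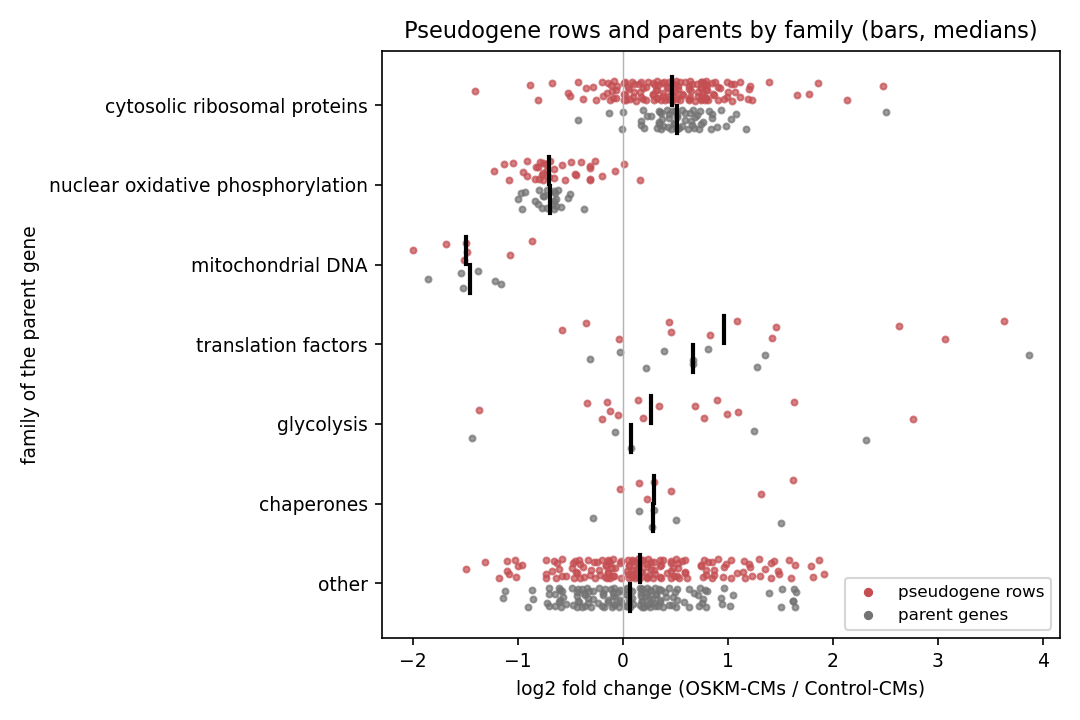
Log2 fold change (OSKM-CMs over Control-CMs) of pseudogene rows (red, upper strip) and their parents (grey, lower strip) by family of the parent; each point is a gene and black bars are medians. Medians of pseudogene rows and parents lie close in ribosomal proteins (0.46 and 0.52), oxidative phosphorylation (-0.70 and -0.69) and mitochondrial DNA (-1.50 and -1.45).

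The nuclear copies of mitochondrial DNA genes held the most reads of all pseudogenes. Of 7 rows, 6 were lower and 1, Gm11408, did not pass, and all 6 parents were lower. These counts held with library totals alone. With TMM scaling, 14.4% of all tested genes were lower. Gm13341, Gm13340 and Gm13339 lie side by side on the minus strand of chromosome 2, from 22587291 to 22590533 (GRCm38). Gm13340 had 15165, 14162 and 12676 reads in OSKM-CMs, against 35631 and 43939 in Control-CMs (log2 fold change -1.50, SE 0.14, limma adjusted p = 0.00043). Its parent mt-Co1 had a log2 fold change of -1.54, and read for read Gm13340 was 6.64%, 6.52% and 6.48% of mt-Co1 in OSKM-CMs and 6.43% and 6.30% in Control-CMs. Its mean scaled RPKM in OSKM-CMs was 0.353 times that in Control-CMs.

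Gm13341, a copy of mt-Co2, had 2814, 2504 and 2141 reads in OSKM-CMs and 5896 and 8195 in Control-CMs (log2 fold change -1.49), at 85.9% to 97.0% of the reads of mt-Co2 in OSKM-CMs and 89.2% and 91.0% in Control-CMs. The level of mt-Co2 was itself low beside mt-Co1. It averaged 1278 scaled RPKM in OSKM-CMs and 3695 in Control-CMs, against 44838 and 131034 for mt-Co1. Gm13339, a copy of mt-Nd2, had 93, 90 and 78 reads in OSKM-CMs and 293 and 423 in Control-CMs (-2.00), at 1.71% to 1.88% of mt-Nd2 in OSKM-CMs and 1.88% and 2.11% in Control-CMs. Gm11407, a copy of mt-Nd5, fell by 1.52, and Gm11512, a second copy of mt-Co1, fell by 1.69 with 9 reads over OSKM-CMs and 27 over Control-CMs. Both calls were lost without Control-CMs replicate 5, and that of Gm11407 also without Control-CMs replicate 3. Genes encoded in mitochondrial DNA themselves made up 9.76% to 11.1% of the OSKM-CMs reads and 21.2% and 24.7% of those in Control-CMs.

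Copies of glycolytic genes split by parent. Of 16 rows, 6 were higher, 1 lower and 9 did not pass, where 15.7% of all tested genes were higher and 14.4% lower. Limma voom called 2 of the rows higher, Pgam1-ps2 and Ldha-ps2, and 1 lower. Pgam1-ps2, which has no 50-base window of its own, had 13, 15 and 13 reads in OSKM-CMs and 0 and 0 in Control-CMs, at least 9.14-fold higher against 3 reads pooled over the controls (limma adjusted p = 7.89e-05). Pgam1-ps1 had 5, 6 and 13 reads in OSKM-CMs and 0 and 2 in Control-CMs (log2 fold change 1.63, limma adjusted p = 0.0221; not passing with limma voom or without Control-CMs replicate 3). Pgam1 averaged 72.7 ± 9.08 scaled RPKM in OSKM-CMs and 13.7 ± 0.0329 in Control-CMs (log2 fold change 2.32).

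Of 5 copies of Ldha, the lactate dehydrogenase A gene, 4 were higher and all 5 had positive log2 fold changes of 0.68 to 1.09, below the 1.25 of Ldha. Ldha-ps2 was the one of the 4 called with limma voom. Ldha-ps2 had 30, 29 and 42 reads in OSKM-CMs and 19 and 14 in Control-CMs (0.90, limma adjusted p = 0.0137; not passing without Control-CMs replicate 5). Gm5514, a copy of Ldhb, the heart form of the enzyme, had 28, 35 and 23 reads in OSKM-CMs and 87 and 64 in Control-CMs (-1.37), beside -1.43 for Ldhb. None of the 7 copies of Gapdh passed, with log2 fold changes of -0.34 to 0.35, and Gapdh itself had 0.07 (limma adjusted p = 0.66).

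**Figure D4:**
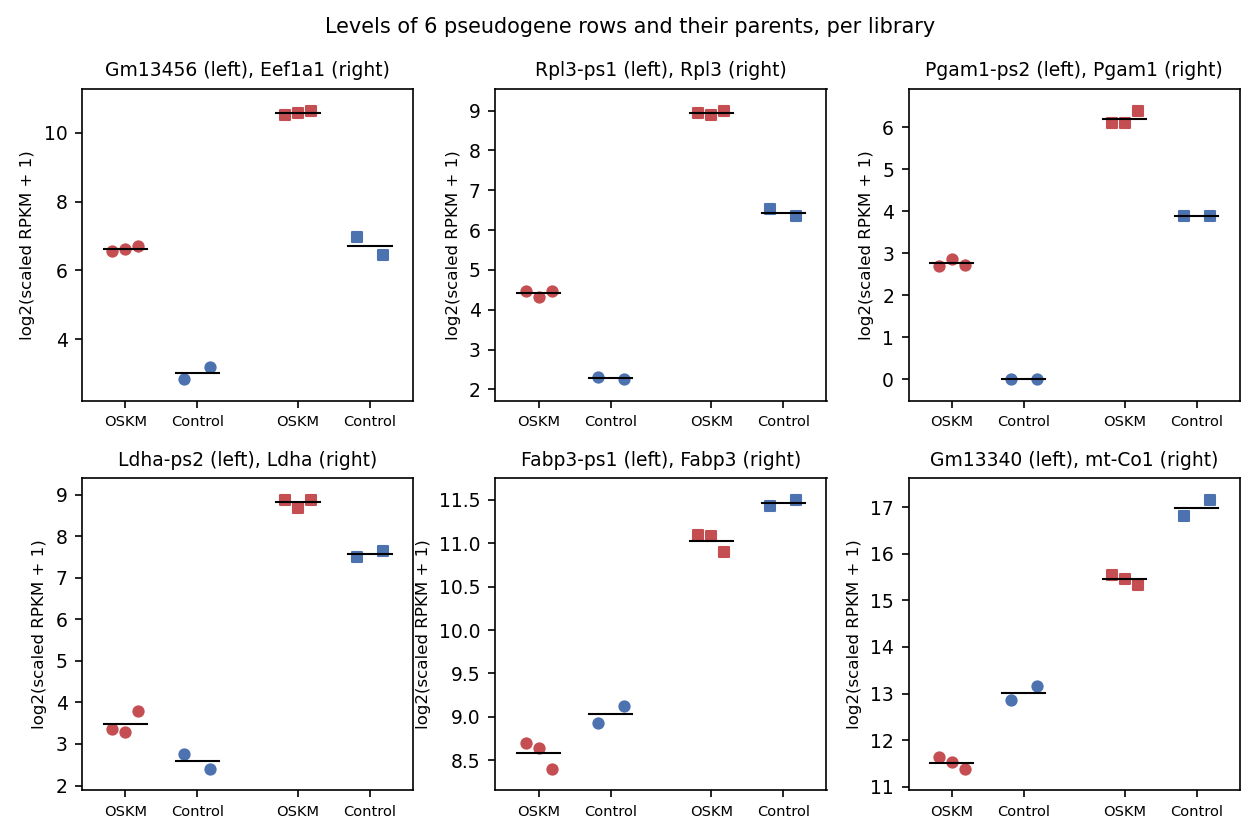
Log2(scaled RPKM + 1) per library for 6 pseudogene rows (circles) and their parents (squares), OSKM-CMs in red and Control-CMs in blue; black lines are group means and each panel has its own axis. Pseudogene and parent shift in the same direction in each panel, upward for Gm13456, Rpl3-ps1, Pgam1-ps2 and Ldha-ps2 and downward for Fabp3-ps1 and Gm13340.

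Among 155 tested pairs outside the families, 129 had the same sign. Of the 157 tested rows, 29 were higher, 12 lower and 116 did not pass. Over all tested genes 30.1% passed, with 15.7% higher and 14.4% lower. Limma voom called 14 of the rows outside the families higher and 7 lower. One of the pairs of opposite sign is Gm12657 (log2 fold change -0.31, not passing) and its parent H3f3a, a histone gene (0.50). Of 4 tested copies of actin and tubulin genes 1 had the sign of its parent: Gm14150, a copy of Tuba1b, was higher (0.63), while Gm5620 had -0.57 and did not pass, beside 1.08 for Tuba1b. The call of Gm14150 was lost with limma voom and in 4 of the 5 fits that left out 1 library. Fabp3-ps1, a copy of the heart fatty acid binding protein gene, had 414, 400 and 338 scaled RPKM in OSKM-CMs and 488 and 556 in Control-CMs (log2 fold change -0.45, limma adjusted p = 0.0364), beside -0.44 for Fabp3. This call was lost with library totals alone and in 4 of the 5 fits that left out 1 library. Gm14681, a copy of the nucleolar protein gene Npm1, had 23, 31 and 23 reads in OSKM-CMs and 4 and 9 in Control-CMs (1.86, SE 0.29), beside 1.50 for Npm1. All 3 tested copies of Mif, a cytokine gene, were higher, at 1.44 to 1.58 beside 1.64, and 2 of 3 copies of Slc25a5, a mitochondrial ADP/ATP carrier, beside 1.63 for Slc25a5. The calls of 2 of the Mif copies were lost with limma voom. Of 7 tested chaperone copies, 5 had the sign of their parent and both copies of Hsp90aa1 passed, beside 1.50 for the parent.

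Some rows rose without a called parent. Gm5067, whose closest gene is the ribosome biogenesis factor Rrs1, had 17, 12 and 8 reads in OSKM-CMs and 2 and 0 in Control-CMs (log2 fold change 1.91), beside 0.44 for Rrs1 (limma adjusted p = 0.138). Pcna-ps2 had 24 reads over OSKM-CMs and 7 over Control-CMs (0.81), beside 0.22 for Pcna. The call of Pcna-ps2 was lost with limma voom and in 4 of the 5 fits that left out 1 library. Other rows were paired with no listed parent by the matching used here. AY036118, the row with the third highest level, had 1894, 1606 and 1789 scaled RPKM in OSKM-CMs and 1048 and 1446 in Control-CMs (0.51, limma adjusted p = 0.0444; lost without OSKM-CMs replicate 1 or 3 or Control-CMs replicate 3). Eif4a-ps4 had 44, 50 and 74 reads in OSKM-CMs and 13 and 13 in Control-CMs (1.81). Its symbol points to an Eif4a gene, although the matching paired it with none that is listed. Eif4a1, which is listed, was higher (log2 fold change 1.35, limma adjusted p = 0.00117). Of the rows annotated elsewhere as coding genes, Cebpd was higher (42, 46 and 70 reads in OSKM-CMs, against 19 and 6 in Control-CMs) and Kbtbd13 lower (1, 1 and 4 reads against 19 and 20).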

How the data were processed

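The deposited table gives, for 5 libraries, values that the authors left as RPKM (reads scaled to gene length and library size), a unit inferred from the values. Beside these the authors' log2 fold change, mean log2 abundance, likelihood-ratio score and p-values with FDR were deposited. Per the submitters' processing notes, CASAVA 1.8.2, FastQC, Trimmomatic, STAR 2.5.3, HTSeq and build mm9 were used; the annotation, strand setting and handling of multiply aligned reads are not given in the sources used here. All 12446 listed genes gave whole reads (within 0.0001), from which TMM factors (30% of log ratios and 5% of abundances trimmed) were computed. Log2(scaled RPKM + 1) was fitted with limma 3.58.1 (R 4.3.3; abundance trend, robust, 2-sided, Benjamini-Hochberg at 0.05) for genes with a mean of at least 1. The procedure was tested on simulated data. The genes changed in the simulation of the limma fit had more reads than most pseudogene rows, so thinly read rows were not covered.

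Parents were found with blastn 2.17.0 among GENCODE M21 protein-coding transcripts (e-value 1e-10, plus strand, coverage of at least 50%, identity of at least 80%, highest score, ties by symbol, other pseudogene rows left out). These minimums and the 50-base windows were chosen after the files were seen. In all 3 parent rules were run: the closest transcript, as planned, is reported, and 2 others, tried after fold changes of pairs had been seen, are given as alternatives. Members, families and lists were chosen with earlier results of these data known. Named rows were up to 12 with the largest positive and 12 with the largest negative log2 fold change among those that passed, the 10 with the highest mean level, every row with -ps in its symbol, and their parents; others, such as Gm6548, Gm11408 and the copies of Gapdh, Mif, Slc25a5 and Hsp90aa1, were chosen after their values were seen, to complete a counted set. The number of per-sample columns left out was 0.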

Additional observations from a re-analysis of the deposited data

How the results depend on the processing

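No paired analysis was possible because replicate numbers coincide between OSKM-CMs and Control-CMs in 1 case only. The same-sign share of pairs, 83.9%, was 82.3% to 88.7% over the settings that kept all libraries, including parents from the symbol only (51 of 62 pairs). The highest share, 88.7%, came with library totals alone, where the median log2 fold change over all tested genes was 0.36. A same-sign share for unrelated genes was not computed. The 2 other parent rules, tried after the data were seen, changed few rows: preferring a listed gene within 95% of the best score changed 6 parents (323 of 385 pairs, r = 0.82), and taking the most-read listed gene within 90% changed 15 (320 of 385, r = 0.82). It was 84.4% without rows that have no 50-base stretch of their own, 83.5% without rows overlapping a coding gene and 83.6% without mitochondrial copies (also chosen after the data were seen).

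Library totals alone gave 171 pseudogene rows higher and 22 lower, and 148 parents higher and 20 lower. Limma voom on recovered reads gave 77 rows changed, 45 higher and 32 lower. Parents from the symbol only gave 28 changed of 46 tested. The ratio of the mean read share in OSKM-CMs over that in Control-CMs was 0.707 with all rows and 1.61 without mitochondrial copies. Leaving out 1 library at a time gave 91 to 138 rows changed (63 to 106 higher, 28 to 51 lower), 100 to 138 parents changed (54 to 78 higher, 36 to 60 lower), a same-sign share of 74.8% to 84.9% and 4 factor genes in every case; with 1 control left, that library is assumed to vary like the other group. Of 86 named genes that passed, 45 passed in every setting that tested them, and 0 reversed. Rows near the median of 61.5 reads cannot show small changes at this depth.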
